A study of Mus musculus with 18 samples.

Results

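The uptake of bile acids, hormones and drugs from blood into the hepatocyte runs through a small set of carriers, and 7 of their genes were followed in mouse liver RNA: Slc10a1, Slco1a1, Slco1a4, Slco1b2, Slco2a1, Slco2b1 and Slc22a7. They were chosen by gene symbol from the 54752 genes of the deposited count table, and each symbol matched 1 gene. All 7 passed the filter on low counts, which kept 21840 genes for testing.

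The livers came from male C57BL/6 mice that were 6 weeks old at the start, with 15 mice per group, and 6 livers per group were sequenced at week 22. The group called CCl4_PTH was dosed orally every day with PTH and had CCl4 injected into the peritoneum 2 times per week. The group called CCl4 had the same CCl4 injections and water in place of PTH. The control group had water by mouth and olive oil injections. CCl4 (carbon tetrachloride) is a solvent made toxic by P450 enzymes of the hepatocyte, and repeated injection scars the liver. PTH, which the labels also write PZH, was taken to be Pien Tze Huang, a traditional Chinese medicine. Its dose, the interval between the last injection and sampling, and whether a tissue piece held tumour were not stated in the sources used. No group had PTH without CCl4, so the 3 comparisons are CCl4 against control, CCl4_PTH against CCl4, and CCl4_PTH against control.

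Hepatocytes take up most organic ions across the sinusoidal membrane, which faces the blood. Bile acids return from the gut in portal blood and enter mainly with sodium through the carrier encoded by Slc10a1. The organic anion transporting polypeptides, encoded by the Slco genes, work without sodium and bring in unconjugated bile acids, bilirubin, thyroid and steroid hormones and many drugs. Slc22a7 belongs to another family, the organic anion and cation carriers. Slco2a1 encodes the prostaglandin carrier, which in most tissues is a gene of endothelial cells more than of parenchymal cells.

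Promoter sequences of 4 genes are shown because Slco1b2, Slco1a4 and Slco1a1 lie within 1 cluster on chromosome 6 and yet had different values, and because Slc10a1 followed Slco1b2 closely. Each window runs from 250 bases before to 50 bases after the transcription start, 5′ to 3′ on the strand of the gene, and comes from RefSeq on build GRCm38.p6. Windows were found for 6 of the 7 genes. Capitals mark letters that match a searched motif: TTCNNNGAA for STAT5, TGTTTNC for the FoxA factors, and AGGTCA, a core site of nuclear receptors. Both strands were searched, and no 2 matches overlapped. The Slco1b2 window is chr6:141629268-141629567 on the plus strand, the Slco1a4 window chr6:141856171-141856470 on the minus strand, and the Slco1a1 window chr6:141946913-141947212 on the minus strand. The Slc10a1 window is chr12:80968656-80968955 on the minus strand.
Slco1b2: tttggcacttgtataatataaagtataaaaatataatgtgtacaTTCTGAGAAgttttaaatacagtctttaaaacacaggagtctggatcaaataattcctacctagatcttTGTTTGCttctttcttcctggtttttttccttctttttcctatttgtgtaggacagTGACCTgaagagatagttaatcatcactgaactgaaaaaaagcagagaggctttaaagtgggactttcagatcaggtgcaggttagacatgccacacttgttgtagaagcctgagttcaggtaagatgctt
Slco1a4: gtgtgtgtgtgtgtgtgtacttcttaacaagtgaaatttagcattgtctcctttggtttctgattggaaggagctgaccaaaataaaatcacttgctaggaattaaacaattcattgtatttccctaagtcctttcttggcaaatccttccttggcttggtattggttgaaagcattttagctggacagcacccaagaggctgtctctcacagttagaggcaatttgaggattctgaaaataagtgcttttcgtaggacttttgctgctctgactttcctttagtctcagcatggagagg
Slco1a1: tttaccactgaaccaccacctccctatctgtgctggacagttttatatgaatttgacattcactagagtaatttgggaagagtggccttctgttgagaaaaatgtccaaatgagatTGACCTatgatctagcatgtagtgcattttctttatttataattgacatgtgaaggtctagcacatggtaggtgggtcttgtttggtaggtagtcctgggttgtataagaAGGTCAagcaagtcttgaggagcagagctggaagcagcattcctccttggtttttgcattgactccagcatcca
Slc10a1: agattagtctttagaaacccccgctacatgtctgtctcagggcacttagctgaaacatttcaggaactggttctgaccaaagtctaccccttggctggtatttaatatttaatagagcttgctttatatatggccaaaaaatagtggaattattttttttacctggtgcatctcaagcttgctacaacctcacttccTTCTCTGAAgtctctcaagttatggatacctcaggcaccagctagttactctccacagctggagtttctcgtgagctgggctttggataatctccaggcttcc

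The Slco1b2 window held all 3 motifs, with the core site, on the opposite strand, starting 81 bases before the transcription start, the FoxA match 137 and the STAT5 match 206 bases before it. Among 32851 promoter windows of the same length, 8.30% held the STAT5 letters, 16.3% the core site and 20.5% the FoxA letters. The Slco1a1 window held 2 core sites, 134 and 24 bases before the start, the first of them on the opposite strand. None of the 3 motifs was found in the Slco1a4 window. The Slc10a1 window shown held a STAT5 match 53 bases before the start, and a second Slc10a1 window, for another start, held a core site. Of 3 windows for Slco2b1, 2 held a STAT5 match each, and the single Slco2a1 window held no match. A match of letters is a description of the sequence only.

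The deposited values are estimated counts per gene. Total counts ran from 67.2 M to 119 M per library, and loci of ribosomal RNA took 30.6% to 55.8% of them. The mean total was highest in CCl4_PTH, at 103 M ± 16.1 counts, against 76.7 M ± 6.49 in CCl4 and 82.2 M ± 3.14 in control libraries (SD, n = 6 each), although CCl4_PTH 7, at 76.9 M, lay below all control libraries. Levels are given below as CPM, counts scaled to a common library size with TMM factors, and differences as log2 fold changes with an approximate standard error (SE) and the adjusted p of the quasi-likelihood test of edgeR, with Benjamini-Hochberg adjustment over the 21840 genes. A gene is said to have risen, fallen or been called where that p was under 0.05. CCl4_PTH 1 stood apart from the rest of its group: it had summed neutrophil markers of 224 CPM, against 12.9 to 27.2 CPM in the other 5 CCl4_PTH libraries. Its summed pericentral hepatocyte markers were 1414 CPM, against 2506 to 3569 CPM in those 5. Fits without CCl4_PTH 1 are given for the 7 transporters and for the counts of the other gene groups. Control 1 also stood apart from the other control libraries. Its TMM factor was 1.03 against 0.652 to 0.798, and its ribosomal loci took 32.5% against 44.6% to 55.8%. It was the highest control library for Slco1a1, Slco1a4, Slco1b2 and Slc22a7. In whole liver, fewer cells of a type and less RNA per cell cannot be told apart.

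CCl4 lowered 5 of the 7 transporters, and the fall of Slco1a1 was far larger than the others. Slc10a1, Slco1b2, Slco2b1 and Slc22a7 had between 26.7% and 43.4% of the control mean in CCl4 livers, while Slco1a1 had 1.83% of it. Slco1a4 and Slco2a1 had 86.4% and 89.6% and were not called. The 5 falls stand beside a background of 21.2% of all tested genes called lower, 26.3% called higher and 47.4% called in either direction. The median log2 fold change was −1.67 over the 7 transporters and 0.05 over all tested genes. The ranges of the CCl4 and control libraries did not overlap for 4 of the 7 transporters, all lower in CCl4, against 26.1% of all tested genes in either direction and 11.3% in that one.

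In CCl4_PTH livers, 4 of those 5 transporters were higher than in CCl4 livers, and 1 remained far below control. Slc10a1, Slco1a1, Slco1b2 and Slco2b1 rose relative to CCl4 and none of the 7 fell. Of all tested genes, 7.1% were called higher, 4.95% lower and 12.1% in either direction. The median log2 fold change was 0.97 over the 7 transporters and −0.03 over all tested genes, and the ranges did not overlap for 2 of the 7, both higher in CCl4_PTH, against 4.07% of all tested genes in either direction and 2.2% in that one. By two-sided exact permutation with adjustment over all tested genes, 0 of the 7 passed in this comparison (smallest adjusted p 0.0532 over all genes), nor did any other gene. DESeq2 and voom each called 4 of the 7, beside 3805 and 4053 genes called in all. By exact permutation 4 of the 7 had an unadjusted p under 0.05, beside 5546 of the 21840 tested genes. Slco1a1 and Slco2b1 had the smallest p that test allows, 0.00216, as did 889 of all tested genes. That p restates that the ranges did not overlap. Against control, Slco1a1 alone of the 7 was called, as lower. In that comparison 10.3% of all tested genes were called lower, 17.4% higher and 27.7% in either direction, and the medians were −0.70 over the transporters and 0.04 over all tested genes. The ranges of CCl4_PTH and control libraries did not overlap for 3 of the 7, all lower in CCl4_PTH, against 14.5% of all tested genes in either direction and 4.67% in that one. The first 2 comparisons share the CCl4 libraries and the last shares libraries with both, so they are not independent.

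**Figure D1:**
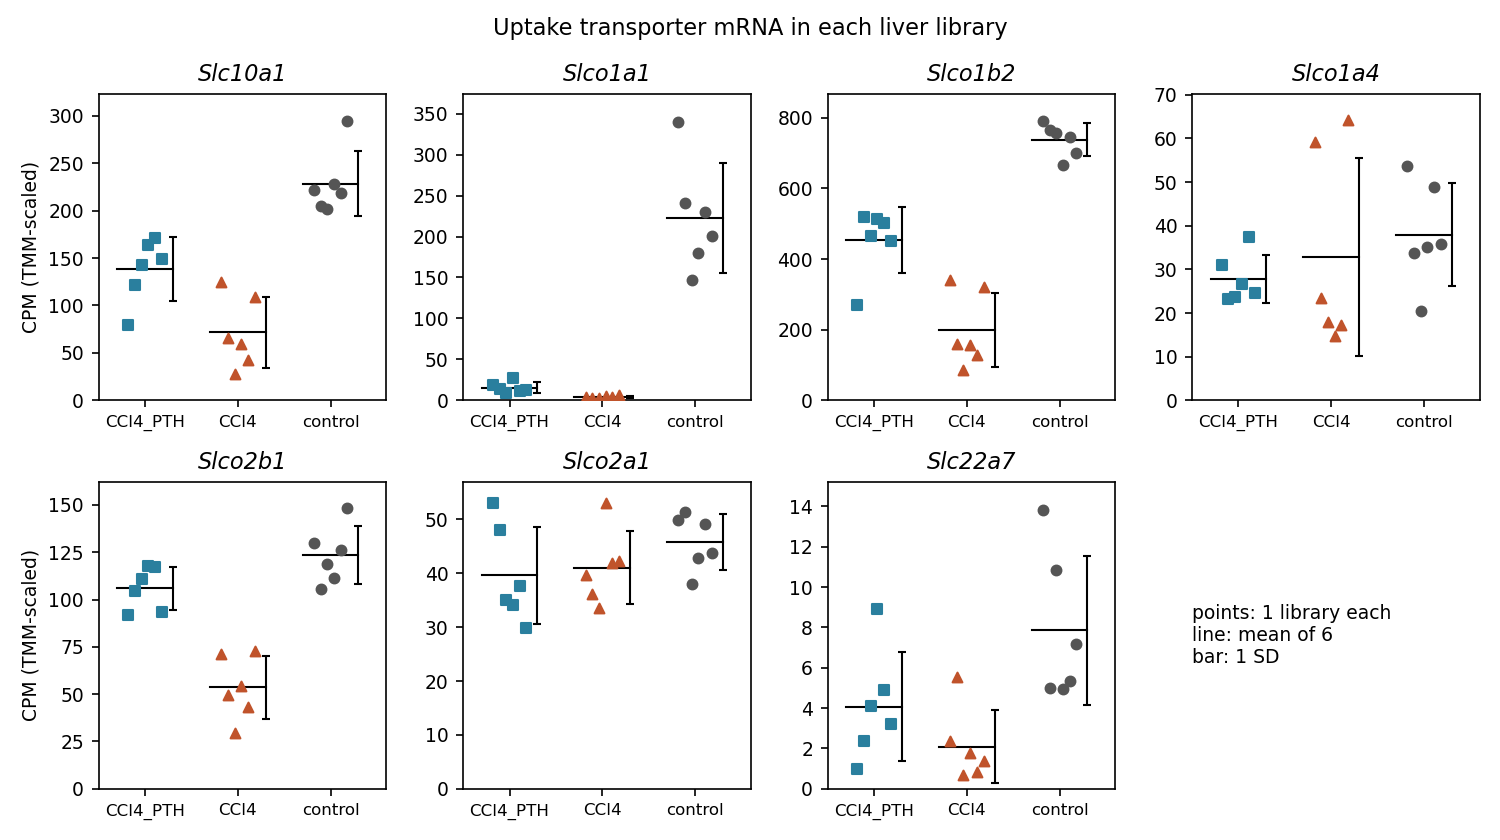
CPM of each transporter gene (vertical axes, each from 0) in the 6 CCl4_PTH (squares), 6 CCl4 (triangles) and 6 control (circles) libraries, with the group mean and 1 SD. Slco1a1 lay between 8.50 and 27.3 CPM in CCl4_PTH and between 2.89 and 6.06 CPM in CCl4 libraries, all below the 147 CPM of the lowest control library, while the ranges of Slco1a4 and Slco2a1 overlapped among all 3 groups.

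Slc10a1 (chr12:80953183-80968705, minus strand) encodes the sodium-dependent carrier of conjugated bile acids. Its lowest, median and highest CPM were 78.9, 146 and 172 in CCl4_PTH, 28.2, 62.6 and 125 in CCl4, and 202, 220 and 295 in control libraries. All CCl4 and all CCl4_PTH libraries lay below the lowest control library, and 4 of the 6 CCl4_PTH libraries lay above the highest CCl4 library. Within CCl4 the libraries CCl4 1 and CCl4 8 were the highest, with 125 and 109 CPM.

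The mean of Slc10a1 was 71.6 ± 37.8 CPM in CCl4 and 228 ± 34.0 CPM in control livers (SD, n = 6 each), 3.19-fold lower in CCl4 (log2 fold change −1.67, SE 0.28, edgeR adjusted p = 9.85e-05). In CCl4_PTH livers it was 138 ± 33.8 CPM (SD, n = 6), which was higher than in CCl4 by 0.95 on the log2 scale (SE 0.28, edgeR adjusted p = 0.0332). Without CCl4_PTH 1 that difference was 1.08 (adjusted p = 0.0116). This rise was called in 16 of 28 alternative analyses and in 10 of the 18 that left out a single library, with adjusted p from 0.00707 to 0.0817 among those 18. Against control, Slc10a1 in CCl4_PTH was at −0.73 (SE 0.28, edgeR adjusted p = 0.0587) and was not called, although the 2 ranges did not overlap. It was at −0.62 without CCl4_PTH 1 (adjusted p = 0.113). It was called lower there in 8 of 28 alternative analyses.

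Slco1a1 (chr6:141907282-141946962, minus strand) encodes an organic anion carrier that is much more abundant in male than in female mouse liver and is sustained by the male pattern of growth hormone secretion. Its lowest, median and highest CPM were 8.50, 12.9 and 27.3 in CCl4_PTH, 2.89, 3.57 and 6.06 in CCl4, and 147, 215 and 340 in control libraries. The 3 groups did not overlap: every CCl4 library lay below every CCl4_PTH library, and every CCl4_PTH library lay below every control library.

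The mean of Slco1a1 was 4.06 ± 1.2 CPM in CCl4 and 223 ± 66.8 CPM in control livers (SD, n = 6 each), 54.8-fold lower in CCl4 (log2 fold change −5.78, SE 0.31, edgeR adjusted p = 7.55e-10). The raw counts behind it ran from 223 to 565 in CCl4 and from 7502 to 29338 in control libraries. In CCl4_PTH livers the mean was 15.3 ± 6.70 CPM (SD, n = 6), 3.76-fold higher than in CCl4 (log2 fold change 1.91, SE 0.27, edgeR adjusted p = 0.000429). That level was still 14.6-fold lower than in control livers (log2 fold change −3.86, SE 0.28, edgeR adjusted p = 8.35e-08) and came to 6.86% of the control mean. Without CCl4_PTH 1 the difference from CCl4 was 1.87 and that from control −3.93, both called.

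Slco1b2 (chr6:141629518-141686646, plus strand) is the mouse counterpart of the human SLCO1B genes, whose products clear bilirubin and statins from blood. Its lowest, median and highest CPM were 270.2, 484 and 520 in CCl4_PTH, 87.2, 158 and 340 in CCl4, and 667, 751 and 792 in control libraries. Both CCl4 groups lay below all control libraries. In 5 of 6 CCl4_PTH libraries it was above the highest CCl4 library, and the exception was CCl4_PTH 1.

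The mean of Slco1b2 was 199 ± 105 CPM in CCl4 and 738 ± 46.2 CPM in control livers (SD, n = 6 each), 3.71-fold lower in CCl4 (log2 fold change −1.89, SE 0.27, edgeR adjusted p = 1.62e-05). In CCl4_PTH livers it was 454 ± 94.1 CPM (SD, n = 6), higher than in CCl4 by 1.19 on the log2 scale (SE 0.27, edgeR adjusted p = 0.00803), and by 1.32 without CCl4_PTH 1 (adjusted p = 0.0020). Against control the difference in CCl4_PTH was −0.70 (SE 0.26, edgeR adjusted p = 0.0532), which was not called, and which was called lower in 9 of 28 alternative analyses. Without CCl4_PTH 1 it was −0.60 (adjusted p = 0.101).

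Slco1a4 (chr6:141805440-141856199, minus strand) encodes a carrier of digoxin and other drugs and is a known target of the receptor PXR, encoded by Nr1i2. Its lowest, median and highest CPM were 23.2, 25.7 and 37.3 in CCl4_PTH, 14.8, 20.7 and 64.2 in CCl4, and 20.5, 35.5 and 53.8 in control libraries. All 3 ranges overlapped, and CCl4 was the most spread group: CCl4 1 and CCl4 8, at 59.3 and 64.2 CPM, lay above all control libraries, and the other 4 lay between 14.8 and 23.4 CPM.

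Slco1a4 averaged 32.8 ± 22.7 CPM in CCl4 and 38.0 ± 11.9 CPM in control livers (SD, n = 6 each). The log2 fold change was −0.21 (SE 0.34, edgeR adjusted p = 0.646) and took the opposite sign, 0.29, where libraries were scaled by their size alone. CCl4_PTH livers averaged 27.8 ± 5.49 CPM (SD, n = 6), with log2 fold changes of −0.24 against CCl4 (SE 0.34, edgeR adjusted p = 0.712) and −0.45 against control (SE 0.34, edgeR adjusted p = 0.355). The value against CCl4 was 0.02 without CCl4 1 and 0.08 without CCl4 8. Without CCl4_PTH 1 it was −0.26 (adjusted p = 0.706), and the value against control was −0.50 (adjusted p = 0.366). No comparison of Slco1a4 was called in these fits.

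Slco2b1 (chr7:99657804-99711340, minus strand) encodes a broad carrier of steroid sulphates and drugs that is also present outside the liver. The CPM of its lowest, median and highest libraries were 91.9, 108 and 118 in CCl4_PTH, 29.4, 52.1 and 73.0 in CCl4, and 105, 122 and 148 in control libraries. The CCl4 libraries lay below all others, and the ranges of CCl4_PTH and control libraries overlapped.

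The mean of Slco2b1 was 53.6 ± 16.7 CPM in CCl4 and 123 ± 15.3 CPM in control livers (SD, n = 6 each), lower in CCl4 with a log2 fold change of −1.20 (SE 0.17, edgeR adjusted p = 1.35e-05). In CCl4_PTH livers it was 106 ± 11.4 CPM (SD, n = 6), higher than in CCl4 by 0.98 on the log2 scale (SE 0.17, edgeR adjusted p = 0.0018). Against control the difference was −0.22 (SE 0.17, edgeR adjusted p = 0.351), and 0.25 where libraries were scaled by their size alone. Without CCl4_PTH 1 the difference was 1.04 from CCl4 (adjusted p = 0.000628) and −0.19 from control (adjusted p = 0.456). Exons of Slco2b1 overlap 2 antisense genes, Gm15635 at 1.43 to 5.50 CPM and Gm34280 at 0.153 to 0.957 CPM, and whether strand was used in counting was not stated.

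Slco2a1 (chr9:102988712-103096002, plus strand), the prostaglandin carrier gene, was not called in any of the 3 comparisons. From lowest through median to highest, its CPM were 29.8, 36.3 and 53.1 in CCl4_PTH, 33.6, 40.8 and 53.1 in CCl4, and 38.0, 46.5 and 51.4 in control libraries. The 3 ranges overlapped, and CCl4_PTH 1 and CCl4 5 were the highest libraries of their groups.

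The means of Slco2a1 were 39.6 ± 9.0 CPM in CCl4_PTH, 41.1 ± 6.77 CPM in CCl4 and 45.9 ± 5.16 CPM in control livers (SD, n = 6 each). The log2 fold change of CCl4 against control was −0.16 (SE 0.14, edgeR adjusted p = 0.356) and took the opposite sign, 0.40, where libraries were scaled by their size alone (adjusted p = 0.0508). CCl4_PTH differed by −0.05 from CCl4 (SE 0.14, edgeR adjusted p = 0.849) and by −0.21 from control (SE 0.14, edgeR adjusted p = 0.264), and neither was called. Without CCl4_PTH 1, the highest CCl4_PTH library, these values were −0.13 (adjusted p = 0.529) and −0.32 (adjusted p = 0.0666). Summed markers of sinusoidal endothelium ran from 360 to 510 CPM in CCl4_PTH, 394 to 427 CPM in CCl4 and 364 to 416 CPM in control libraries, and those of vascular endothelium from 97.9 to 124, 99.0 to 142 and 71.3 to 86.5 CPM in the same order of groups. None of the 10 markers in either list was at 0 in a group. Of the vascular markers 6 of 10 were called higher in CCl4 than in control, and of the sinusoidal markers 3 were higher and 2 lower. Of all tested genes 26.3% were called higher and 21.2% lower. Their part in the level of Slco2a1 was not tested.

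Slc22a7 (chr17:46432183-46438457, minus strand) encodes an organic anion carrier that also moves nucleotides such as cyclic GMP. It was the gene with the fewest counts of the 7 in control livers, from 263 to 1192 per library. Its lowest, median and highest CPM were 0.979, 3.66 and 8.89 in CCl4_PTH, 0.707, 1.57 and 5.54 in CCl4, and 4.95, 6.27 and 13.8 in control libraries. In 5 of 6 CCl4 libraries it lay below every control library, with CCl4 2 the exception, and the CCl4_PTH range overlapped both other groups.

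The mean of Slc22a7 was 2.1 ± 1.80 CPM in CCl4 and 7.86 ± 3.68 CPM in control livers (SD, n = 6 each), lower in CCl4 with a log2 fold change of −1.91 (SE 0.53, edgeR adjusted p = 0.00607). CCl4_PTH livers averaged 4.08 ± 2.72 CPM (SD, n = 6). That mean differed from CCl4 by 0.97 (SE 0.51, edgeR adjusted p = 0.239) and from control by −0.95 (SE 0.51, edgeR adjusted p = 0.18), and neither was called. Without CCl4_PTH 1, its lowest library, the difference from CCl4 was 1.19 (adjusted p = 0.102) and that from control −0.76 (adjusted p = 0.272). CCl4 2, the highest CCl4 library, decided the first of these calls: without it CCl4_PTH was higher than CCl4 by 1.55 (adjusted p = 0.0494), called there and in none of the other 27 alternative analyses. Without CCl4 2 the fall in CCl4 against control was −2.51 (adjusted p = 0.000511).

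**Figure D2:**
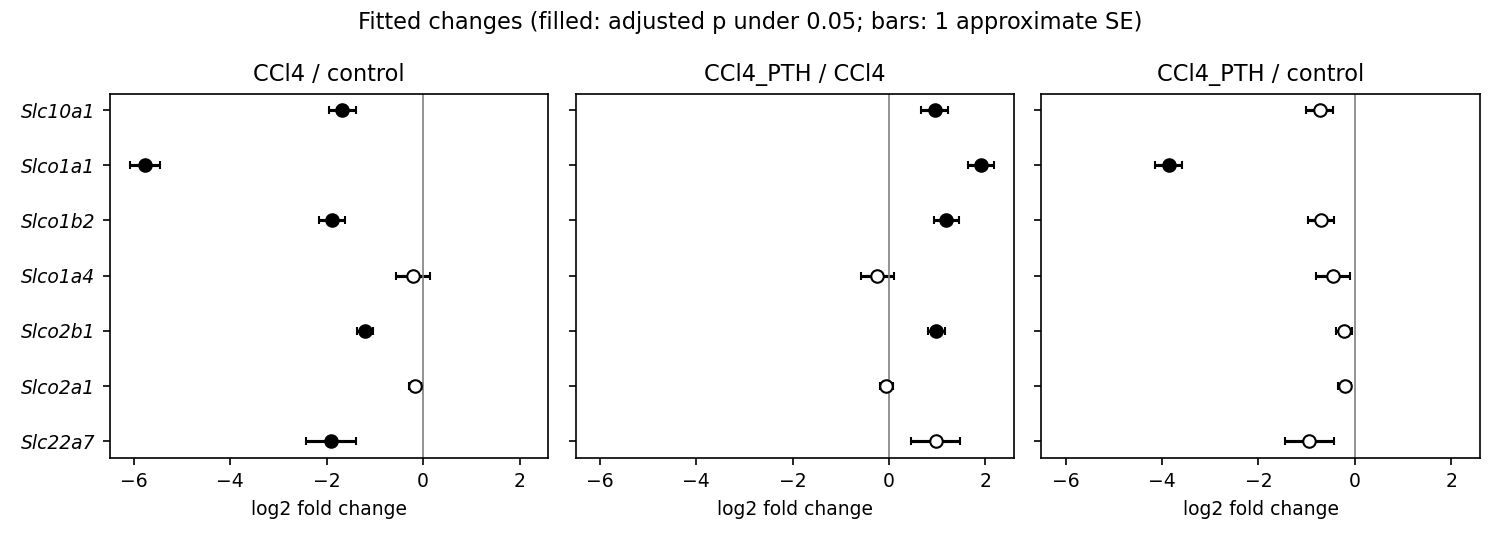
Fitted log2 fold changes (horizontal axes) of the 7 transporter genes in the 3 comparisons, with bars of 1 approximate SE and filled points where the edgeR adjusted p was under 0.05. Slco1a1 lay at −5.78 in CCl4 against control, at 1.91 in CCl4_PTH against CCl4 and at −3.86 in CCl4_PTH against control, the farthest from 0 of the 7 in each panel.

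Levels of different genes were compared as CPM per kilobase of exon, with the length taken over all annotated exons of a gene. The longest transcript is shorter, by unlike amounts: 7122 against 13545 bases for Slco2a1, 3823 against 6414 for Slco1a4 and 3904 against 5276 for Slco1a1. The order of genes close in level depends on that choice. In control livers Slco1b2 was the most abundant at 150 ± 9.37, followed by Slc10a1 at 104 ± 15.5, Slco1a1 at 42.2 ± 12.7 and Slco2b1 at 20.7 ± 2.56 CPM per kilobase (SD, n = 6 each). Slco1a4 at 5.92 ± 1.85, Slc22a7 at 3.74 ± 1.75 and Slco2a1 at 3.39 ± 0.381 CPM per kilobase came last. The libraries of neighbouring genes did not overlap for the first 4 steps of that order, down to Slco1a4, and they overlapped between Slco1a4, Slc22a7 and Slco2a1.

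In CCl4 livers Slco1a1 stood last of the 7, at 0.770 ± 0.228 CPM per kilobase (SD, n = 6), below Slc22a7 at 0.998 ± 0.854. Slco1b2 at 40.3 ± 21.4 and Slc10a1 at 32.6 ± 17.2 CPM per kilobase were still the most abundant pair, and their ranges overlapped. The only neighbours in that order without overlap were Slc10a1 and Slco2b1, which was at 8.99 ± 2.81 CPM per kilobase. In CCl4_PTH livers the order began with Slco1b2 at 92.1 ± 19.1, Slc10a1 at 62.8 ± 15.4, Slco2b1 at 17.8 ± 1.92 and Slco1a4 at 4.33 ± 0.856 CPM per kilobase. Slco2a1 at 2.92 ± 0.665, Slco1a1 at 2.90 ± 1.27 and Slc22a7 at 1.94 ± 1.30 CPM per kilobase followed, with overlapping ranges. The summed level of all 7 was 185 ± 34.9 in CCl4_PTH, 91.8 ± 44.8 in CCl4 and 330 ± 25.4 CPM per kilobase in control livers (SD, n = 6 each).

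Slco1b2, Slco1a4 and Slco1a1 lie in that order along chromosome 6, and their balance differed between the groups. Slco1a1 made up 3.06% ± 1.56 of the summed CPM per kilobase of the 3 genes in CCl4_PTH, 1.97% ± 0.813 in CCl4 and 21% ± 4.07 in control livers (SD, n = 6 each). The highest share was 5.47% in CCl4_PTH and 2.98% in CCl4, and the lowest in control was 15.1%. Slco1b2 made up 92.4%, 87.4% and 76.0% in the same order of groups. The sum of the 3 genes was 99.3 ± 18.9 in CCl4_PTH, 46.2 ± 24.9 in CCl4 and 198 ± 21.1 CPM per kilobase in control livers (SD, n = 6 each).

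The neighbouring genes Slco1a1 and Slco1a4 parted most. The ratio of Slco1a1 to Slco1a4, per kilobase, was 0.683 on average and 0.386 to 1.25 in CCl4_PTH, 0.204 and 0.0741 to 0.409 in CCl4, and 7.30 and 5.72 to 8.70 in control libraries. On these exon lengths Slco1a1 was thus above Slco1a4 in every control library and in CCl4_PTH 6 alone of the other 12. Of the 75-base words of their longest transcripts, 1.51% of those of Slco1a1 and 1.76% of those of Slco1a4 also occur in other genes, each other among them, and 0% of those of Slco1b2. The other genes of the cluster had few reads: over all 18 libraries Slco1a5 stayed at or below 0.0586, Slco1a6 at or below 0.104, Gm5724 at or below 0.0378 and Gm6614 at or below 0.765 CPM.

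**Figure D3:**
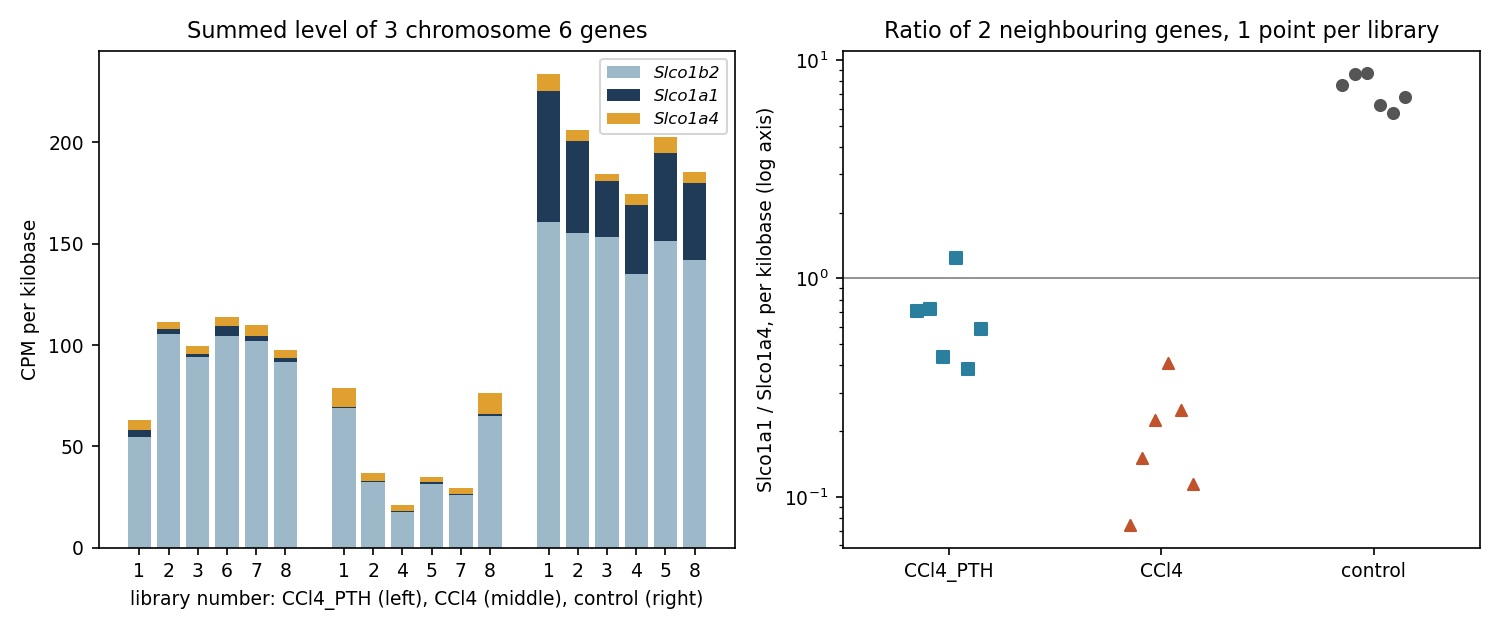
Left, CPM per kilobase of Slco1b2, Slco1a1 and Slco1a4 stacked for each library, with CCl4_PTH, CCl4 and control libraries from left to right and the labels' library numbers below. Right, the ratio of Slco1a1 to Slco1a4 per kilobase on a log axis, 1 point per library, with a line at a ratio of 1: the control libraries lie between 5.72 and 8.70, and the CCl4 libraries between 0.0741 and 0.409.

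The variation among livers of 1 group was shared by several of the transporters. CCl4 1 and CCl4 8 were the 2 highest CCl4 libraries for Slc10a1, Slco1b2, Slco1a4 and Slco2b1, and CCl4 4 was the lowest for Slc10a1, Slco1b2, Slco2b1, Slco2a1 and Slc22a7. Slco1b2 had 340 and 321 CPM in CCl4 1 and CCl4 8 and 87.2 CPM in CCl4 4. Summed periportal hepatocyte markers were 3993 and 3995 CPM in CCl4 1 and CCl4 8, the highest of the CCl4 libraries, and 1930 CPM in CCl4 4, the lowest. Summed pericentral markers were also highest in those 2 libraries, at 989 and 583 CPM, against 343 to 514 CPM in the other 4. Summed macrophage markers were 536 and 404 CPM in CCl4 1 and CCl4 8 and highest in CCl4 4, at 1192 CPM. The part of these markers in the transporter levels was not tested.

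The likeness of profiles was measured as the root mean square difference of log2 CPM over the 18 libraries, with each gene centred on its own mean. The closest pair among the 7 was Slc10a1 and Slco1b2, at 0.215, and the farthest was Slco1a1 and Slco2a1, at 2.35. Slco1a1 was at least 1.73 away from each other member. Among 14012 other genes with a mean of at least 1 CPM, Proz, Mgam and Slc2a9 were closest to Slco2b1, at 0.123 to 0.131, and Dennd4a, Sgms1 and Atxn7l3 closest to Slco2a1, at 0.141 to 0.147. BC024386, Klkb1 and Ugt2a3 were closest to Slco1b2, at 0.209 to 0.238, and Dhdh, Clcn2 and Tmem220 closest to Slc10a1, at 0.236 to 0.244.

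The other 3 members had no such close profile. Gm15666, Eif1b and Bhmt2 were nearest to Slco1a4, at 0.424 to 0.438, and Mlxipl, Klf1 and H2-Ke6 nearest to Slc22a7, at 0.60 to 0.616. For Slco1a1 the nearest were Nxpe2 at 0.867, Mup13 at 0.998 and Mup8 at 1.02. Mup13, one of the major urinary protein genes, averaged 120 CPM in CCl4_PTH, 31.4 CPM in CCl4 and 1458 CPM in control livers, and Mup genes are near-identical copies whose reads may be shared.

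Of 10 other Slco genes, 3 passed the low-count filter, and 2 of them were called higher in CCl4 than in control, beside 26.3% of all tested genes. Slco3a1, a widely expressed family member, averaged 10.6 ± 6.09 CPM in CCl4 and 3.65 ± 0.401 CPM in control livers (SD, n = 6 each; log2 fold change 1.53, SE 0.27, edgeR adjusted p = 0.000141). Slco5a1 averaged 0.196 CPM in CCl4_PTH and 0.251 CPM in CCl4, and had 0 counts in the control libraries. It could pass the filter only through the groups given CCl4, so its calls against control are no support for a rise. Against CCl4, no other Slco gene was called in CCl4_PTH. Slco3a1 and Slco5a1 were called higher there than in control, beside 17.4% of all tested genes. With so few genes, these counts are not a result about the family.

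Genes of the Slc10 family were called in both directions in CCl4. Of 5 tested Slc10 genes other than Slc10a1, 3 rose in CCl4 against control and 1 fell, beside 26.3% and 21.2% of all tested genes. With so few genes, these counts are not a result about the family. Slc10a5 fell by 1.06 on the log2 scale (SE 0.21, edgeR adjusted p = 0.000323; 20.8 ± 7.27 CPM in CCl4, 43.4 ± 6.04 CPM in control), and was the 1 member called in CCl4_PTH against CCl4, higher by 0.99 (SE 0.20, edgeR adjusted p = 0.00575; 41.3 ± 9.27 CPM). Slc10a2, the bile acid carrier of ileum and bile duct epithelium, averaged 20.1 ± 7.02 CPM in CCl4_PTH, 15.2 ± 7.52 CPM in CCl4 and 6.45 ± 6.08 CPM in control livers (SD, n = 6 each). It was called higher than control in both groups, with adjusted p = 0.0205 in CCl4_PTH and 0.0478 in CCl4 (edgeR), the second in 10 of 28 alternative analyses. Slc10a3 also rose in both, and Slc10a7 in CCl4. Slc10a3 and Slc10a5 share exon sequence with Ubl4a and Gm38303 on the same strand.

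Most tested Slc22 genes were called lower in CCl4. Of 14 tested members other than Slc22a7, out of 23 listed, 9 were lower in CCl4 than in control and 0 higher, beside 21.2% and 26.3% of all tested genes, with a median log2 fold change of −0.74 against 0.05 over all tested genes. Slc22a28 averaged 3.83 ± 1.70 CPM in CCl4 and 22.0 ± 7.13 CPM in control livers (SD, n = 6 each; log2 fold change −2.52, SE 0.38, edgeR adjusted p = 3.65e-05). Slc22a30 averaged 26.3 ± 11.7 CPM in CCl4 and 98.8 ± 27.6 CPM in control livers (SD, n = 6 each), with a log2 fold change of −1.91 (SE 0.35, edgeR adjusted p = 0.000248). With library sizes alone as scaling, 4 members were lower and 1 higher, beside 1061 lower and 11275 higher of the 21840 tested genes.

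In CCl4_PTH 2 of the 14 were higher than in CCl4 and 0 lower, where 7.1% and 4.95% of all tested genes were called, and the median log2 fold change was 0.04 over the 14 against −0.03 over all. With so few genes, that count is not a result about the family. These were Slc22a28 at 11.4 ± 4.80 CPM (SD, n = 6; log2 fold change 1.57, SE 0.37, edgeR adjusted p = 0.0118) and Slc22a30 at 69.4 ± 27.5 CPM (SD, n = 6; log2 fold change 1.40, SE 0.35, edgeR adjusted p = 0.0155). Slc22a28 and Slc22a30 have close relatives in the genome, and shared reads were not checked for them. Against control 5 members were lower in CCl4_PTH and 0 higher, beside 10.3% and 17.4% of all tested genes. The 2 with the smallest p were Slc22a3, an organic cation carrier gene whose exons meet an antisense partner, Plg, with a log2 fold change of −1.54, and Slc22a5, the carnitine carrier gene, with −1.27 (edgeR adjusted p = 0.00054 for both).

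Regulators known to act on uptake transporter genes in liver were counted as a group of 24, all of them tested. In CCl4 against control 15 were lower and 1 higher, beside 21.2% and 26.3% of all tested genes, and the median log2 fold change was −0.59 against 0.05 over all. Nr1i3, which encodes the drug-sensing receptor CAR, averaged 41.3 ± 22.6 CPM in CCl4 and 257 ± 85.7 CPM in control livers (SD, n = 6 each; log2 fold change −2.64, SE 0.33, edgeR adjusted p = 5.69e-06). Nr1i2, which encodes PXR, was lower by a log2 fold change of −1.10 (SE 0.15, edgeR adjusted p = 7.46e-06). Hnf4a, Foxa1, Foxa2, Cebpa and Nr1h4, which encodes the bile acid receptor FXR, were among the lower genes, with log2 fold changes from −1.33 to −0.62. Nfe2l2, the regulator of the oxidative stress response, was the 1 gene called higher, at 0.37. These counts depended on scaling: with library sizes alone 5 were lower and 6 higher, and Nr3c1, Nr5a2, Rara and Stat5b took a positive sign. In that fit 1061 of the 21840 tested genes were called lower and 11275 higher. The median log2 fold change over all of them was 0.63.

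In CCl4_PTH 5 of the 24 regulators were higher than in CCl4 and 0 lower, beside 7.1% and 4.95% of all tested genes. The 5 became 3 without CCl4 4, CCl4_PTH 6 or CCl4_PTH 7, 7 without CCl4 1, CCl4 5 or CCl4_PTH 1, and 0 by exact permutation or with the replicate block. Calls over all genes, 2632 in the main fit, were 1509 to 1704 where 3 regulators were called and 2527 to 3854 where 7 were. They were 0 by exact permutation and 84 with the replicate block. Ghr, the growth hormone receptor gene, averaged 280.3 ± 92.4 CPM in CCl4_PTH and 112 ± 46.4 CPM in CCl4 livers (SD, n = 6 each; log2 fold change 1.33, SE 0.27, edgeR adjusted p = 0.00571). Stat5b, which encodes the factor that carries the growth hormone signal to the nucleus, had a log2 fold change of 0.42 (edgeR adjusted p = 0.0161). Nr3c1, Ppara and Cebpa were the other 3, at 0.38, 0.81 and 0.83. Against control 8 regulators were lower in CCl4_PTH and 0 higher, beside 10.3% and 17.4% of all tested genes, led by Nr1i3 at −1.94 (edgeR adjusted p = 0.000306) and Nr1i2 at −0.72 (edgeR adjusted p = 0.00122). With library sizes alone 1 was lower and 5 higher in that comparison. Over all 21840 tested genes that fit called 353 lower and 9559 higher. Reads of Nr1i3 and of Cebpa may include those of overlapping antisense genes.

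**Figure D4:**
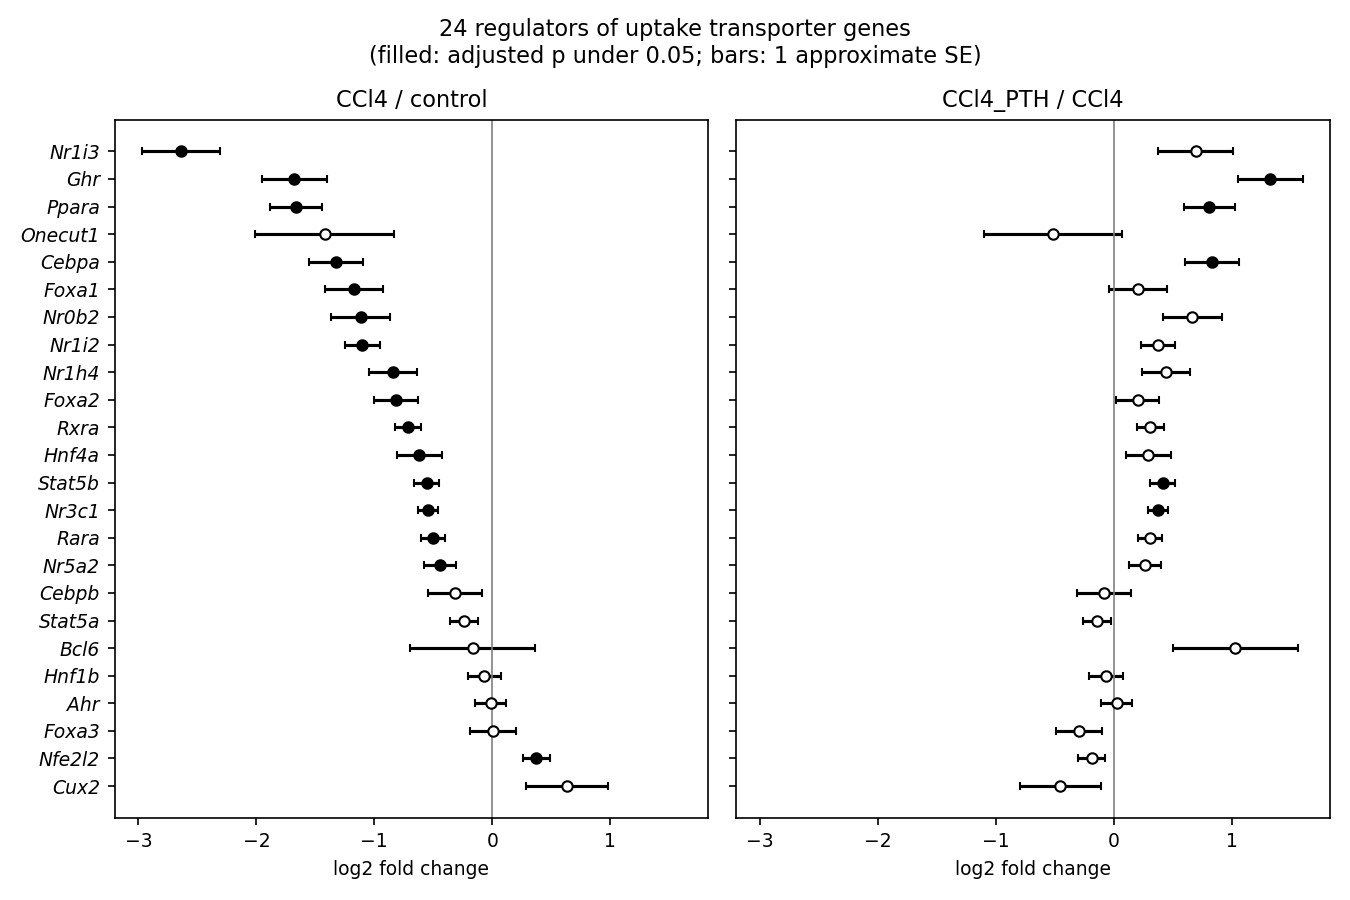
Fitted log2 fold changes (horizontal axes) of the 24 regulator genes in CCl4 against control (left) and CCl4_PTH against CCl4 (right), ordered by the left panel, with bars of 1 approximate SE and filled points where the edgeR adjusted p was under 0.05. Nr1i3 lies lowest on the left, at −2.64, and Ghr highest on the right, at 1.33. With library sizes alone as scaling, 5 genes are called lower and 6 higher on the left, and 2 higher on the right. Over all 21840 tested genes that scaling gives 1061 lower and 11275 higher on the left, and 621 lower and 476 higher on the right.

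Around Slco2a1, genes of prostaglandin synthesis, export and breakdown changed while the carrier gene did not pass the test. Of 15 listed genes, all tested, 10 were higher and 2 lower in CCl4 than in control, beside 26.3% and 21.2% of all tested genes. The higher genes include Ptgs2 and Ptges. These had 7 and 51 counts in all over the control libraries, and 0 in the lowest of them. They could not pass the low-count filter through control libraries alone, so their calls against control are no support for a rise. Abcc4, an exporter of prostaglandins and bile acids, averaged 25.4 ± 4.39 CPM in CCl4 and 4.28 ± 1.06 CPM in control livers (SD, n = 6 each; log2 fold change 2.57, SE 0.19, edgeR adjusted p = 1.31e-08). Hpgds, a prostaglandin D synthase gene, was higher by 2.27. The 2 lower genes were Hpgd at −1.28 and Ptgr2 at −0.95, while Ptgr1 and Cbr1 were among the higher genes, at 1.73 and 0.52.

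In CCl4_PTH Abcc4 averaged 8.49 ± 2.15 CPM (SD, n = 6), lower than in CCl4 with a log2 fold change of −1.58 (SE 0.18, edgeR adjusted p = 6.02e-05). Cbr1 and Tbxas1 were also lower, at −0.70 and −0.87, and Hpgd and Ptgr2 were higher, at 0.94 and 0.70. These are 3 lower and 2 higher of the 15, beside 4.95% and 7.1% of all tested genes. The calls of Hpgd and Tbxas1 held in 14 and 18 of 28 alternative analyses. Against control 9 of the 15 were higher in CCl4_PTH and 0 lower, beside 17.4% and 10.3% of all tested genes, led by Ptgis at 1.95 and Hpgds at 1.62. The higher genes again include Ptgs2 and Ptges, whose calls against control are no support for a rise. Exons of Ptgis, Ptgr2 and Tbxas1 overlap antisense genes.

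Without CCl4_PTH 1, the counts in CCl4_PTH against CCl4 were 0 higher and 0 lower for the other Slco genes, 1 and 1 for the Slc10 genes, 2 and 0 for the Slc22 genes, 7 and 0 for the regulators, and 2 and 4 for the prostaglandin genes. Against control they were 2 and 0, 2 and 0, 0 and 5, 0 and 9, and 8 and 0 in the same order of lists. Over all genes, that fit called 2286 higher and 1568 lower against CCl4, beside 1551 and 1081 with all libraries. Against control it called 3526 higher and 2257 lower, beside 3798 and 2253 with all libraries.

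The tissue was checked against hepatocyte markers, of which 13 of 14 were in the table and none was at 0 in a group. Their sum ran from 44083 to 84143 CPM in CCl4_PTH, 28747 to 65425 CPM in CCl4 and 56520 to 70781 CPM in control libraries, with Alb the largest. In CCl4 against control 6 of the 13 were lower and 1 higher, beside 21.2% and 26.3% of all tested genes. The median log2 fold change of the 13 was −0.54, against −1.67 for the 7 transporters. CCl4_PTH 1, lowest of its group for Slc10a1, Slco1b2, Slco2b1 and Slc22a7, had the highest hepatocyte sum of all 18 libraries. Of that sum 35157 CPM came from Fga, Fgb, Fgg and Hpx, the genes of the fibrinogen chains and hemopexin, which are acute-phase proteins, against 5448 to 7336 CPM in the other 5 CCl4_PTH libraries. The other 9 markers summed to 48986 CPM in CCl4_PTH 1, within the 38635 to 51006 CPM of those 5 and below every control library, the lowest of which had 51365 CPM. These 4 genes were set apart after their values were seen. Summed pericentral markers ran from 1414 to 3569 CPM in CCl4_PTH, 343 to 989 CPM in CCl4 and 4792 to 8353 CPM in control libraries, 3 ranges that did not overlap. In CCl4 8 of the 10 pericentral markers were lower than in control, beside 21.2% of all tested genes. In CCl4_PTH 8 of 10 were higher than in CCl4, beside 7.1% of all tested genes. Summed periportal markers ran from 2722 to 4731, 1930 to 3995 and 3034 to 4253 CPM in the same order of groups. Of the 10 periportal markers 0 were called lower and 2 higher in CCl4 than in control.

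Markers of several other cell types of the liver were called higher in CCl4 than in control. In CCl4 against control 10 of 10 cholangiocyte, 8 of 10 macrophage, 8 of 10 stellate cell and 9 of 9 tested neutrophil markers were higher. Of all tested genes 26.3% were called higher in that comparison. Summed cholangiocyte markers ran from 76.9 to 268 CPM in CCl4_PTH, 116 to 212 CPM in CCl4 and 32.0 to 49.1 CPM in control libraries. Summed macrophage markers ran from 301 to 730, 404 to 1192 and 171 to 273 CPM in the same order of groups, and stellate cell markers from 581 to 1082, 565 to 976 and 282 to 343 CPM. Summed neutrophil markers ran from 12.9 to 224, 14.4 to 122 and 1.84 to 4.32 CPM. Ly6g and Mmp8 were at 0 in control and could pass the low-count filter only through the groups given CCl4. S100a8, Retnlg, Cxcr2, Camp, Ngp and Ltf were at 0 in their lowest control library. So were the cholangiocyte markers Krt19, Krt7, Cldn7, Tspan8 and Cftr, and Muc1 was at 0.0463 CPM there. None of these could pass that filter through control libraries alone, so their calls against control are no support for a rise. The CCl4_PTH and CCl4 ranges overlapped for each of these 4 sums. In CCl4_PTH against CCl4 the calls were 1 lower cholangiocyte marker, 1 higher and 1 lower macrophage marker, and 0 stellate cell and 0 neutrophil markers. Of all tested genes 7.1% were called higher and 4.95% lower there. The part of these cells in the transporter results was not tested.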

How the data were processed

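Long RNA was measured in 18 mouse livers, 6 per group. Per the labels' protocols, TRIzol-extracted RNA was depleted of ribosomal RNA, and NEBNext libraries were sequenced on an Illumina HiSeq in pairs of 150 bases. Build GRCm38, HISAT2 2.2.1, Bowtie2 2.5.1, StringTie 2.1.5, cutadapt 4.2 and FastQC 0.11.9 stand in the submitters' processing notes, with no role given. The tool that counted, its annotation and its use of strand are not given in the sources used here, and reads of overlapping genes may be shared. The authors deposited estimated counts per gene, read as such from identifiers and values. They were whole numbers, not scaled to depth, and rounding changed 0 of them. Total counts ran from 67.2 M to 119 M per library, and intervals from counts would cover counting error only.

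Genes were kept with filterByExpr (minimum count 10) in edgeR 4.0.16 (R 4.3.3), scaled with TMM factors and fitted in 1 robust quasi-likelihood model of the 3 groups without a block. P-values were Benjamini-Hochberg adjusted over 21840 genes, with a threshold of 0.05. The approximate SE was the size of a log2 fold change over the root of its F statistic. The model was tested on simulated counts for CCl4 against control, with changes set in genes drawn at random from those tested. It recovered 46 of 100 genes changed by 1 on the log2 scale and 75 of 100 changed by 2. Of 21322 genes, 3 unchanged ones were called. Far fewer genes were changed in the simulation than the 10362 called in CCl4 against control, so these rates need not hold for the data. A gene that was not called can still have changed. Alternatives were median-of-ratios factors, library sizes alone, ribosomal loci left out, no filter, DESeq2 1.42.0, voom with quality weights (limma 3.58.1), a two-sided exact permutation test, the 2 groups alone, a replicate block, and leaving out each library. A fit without control 1 and control 8 was added after seeing the data. Exon lengths and positions came from GENCODE M21 on GRCm38.

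The 7 members were all named in every comparison. From each other list the genes in each direction were counted, and the 2 called genes with the smallest p were named, or all where 5 or fewer were called. The 3 genes nearest to each member were named by profile. A few further regulators were named after their values were seen. Members and lists were chosen with earlier results of these data known. Some listed genes are not reported here. No 2 libraries of a group agreed within sampling noise (chi-square per gene at least 58.2 over 45 pairs). The small RNA and circular RNA data were not analysed here.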

Additional observations from a re-analysis of the deposited data

Results flagged for a closer look

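Within the groups of 6 libraries, 3 values lay apart from the other 5 by the Dixon criterion, out of 24 groups of values checked, and chance gives about 1 in 20. Slc10a1 in control 8 was the highest of its group, at 295 CPM, against 202 to 228 CPM in the other 5 control libraries, a gap of 0.719 of the whole range. Slc22a7 in CCl4 2 was the highest of its group, at 5.54 CPM, with a gap of 0.652 of the range. Slco1b2 in CCl4_PTH 1 was the lowest of its group, at 270.2 CPM, against 452 to 520 CPM in the other 5 CCl4_PTH libraries, a gap of 0.727 of the range. CCl4_PTH 1 was also the library with the highest neutrophil sum, 224 CPM, and the part of that in the value was not tested.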

How the results depend on the processing

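The 5 falls in CCl4 against control (Slc10a1, Slco1a1, Slco1b2, Slco2b1 and Slc22a7) and the fall of Slco1a1 in CCl4_PTH against control were called in all 28 alternatives. In CCl4_PTH against CCl4, Slco1a1 was called in 27 of 28, Slco1b2 and Slco2b1 in 26 each and Slc10a1 in 16. The count of members called there, 4, was 0 by exact permutation (smallest adjusted p 0.0532, with 5546 genes at an unadjusted p under 0.05) and 1 with the replicate block. The count over all genes, 2632, was 1097 with library sizes alone, 4053 with voom, 0 by exact permutation, 84 with the replicate block, and 1509 to 3854 with 1 library left out. Replicate numbers did not pair the libraries: deviations from group means correlated at −0.209 to 0.0833 over 13 same-numbered pairs. In CCl4_PTH against control the members called, 1, numbered 2 with median-of-ratios factors, 3 with DESeq2, voom, exact permutation or the 2 groups alone, and 1 to 3 with 1 library left out, 3 without CCl4 1, 4, 7 or 8. All genes called, 6051, numbered 9912 with library sizes alone and 3343 with the replicate block.

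With library sizes alone the median of all genes moved to 0.63 (CCl4 against control), −0.13 (CCl4_PTH against CCl4) and 0.51 (CCl4_PTH against control), and called genes were higher in 91.4%, 43.4% and 96.4% of cases, against 55.3%, 58.9% and 62.8%. The signs turned for Slco1a4 (0.29) and Slco2a1 (0.40) in the first comparison and for Slco2a1 (0.27) and Slco2b1 (0.25) in the last. Relative to the moved median, Slco1a4 and Slco2a1 were at −0.33 and −0.23 in the first. In CCl4_PTH against CCl4, Slco1a4 was 0.0067 by exact permutation, 0.022 without CCl4 1, 0.078 without CCl4 8 and −0.38 to 0.078 over all fits with 1 library left out, and Slco2a1 was 0.034 with the replicate block, 0.046 without CCl4 5 and 0.024 without CCl4_PTH 8. The cause of these changes was not tested. Slc22a7 had 73 to 427 counts per CCl4 library, and its levels there had a coefficient of variation of 85.6% between livers.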
